A study of Homo sapiens with 12 samples.

Results

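The genes described here are 10 members of the enzyme families that hydroxylate and cross-link collagen. They were chosen by gene symbol, after the Ensembl identifiers of the count table had been matched to symbols, from 58735 genes in all. The members are 3 alpha subunits of prolyl 4-hydroxylase (P4HA1, P4HA2 and P4HA3), 3 lysyl hydroxylases (PLOD1, PLOD2 and PLOD3) and 4 lysyl oxidases (LOX, LOXL1, LOXL2 and LOXL4). Of these, 9 had enough counts to be tested, and LOXL4 did not.

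The data were poly(A) RNA-seq counts from FDX2-iKO ES2 cells. ES2 is a line grown from a human ovarian tumour, and in the iKO derivative FDX2, a ferredoxin of mitochondrial iron-sulfur cluster assembly, can be switched off. The endogenous FDX2 gene was deleted by genome editing, and an HA-tagged, editing-resistant FDX2 cDNA was expressed under a Tet-On promoter, so FDX2 is made with doxycycline (Doxy) and lost without (wo) it. All 12 libraries share the deletion, the Tet-On regulators and the transgene, and, per the methods of the study, the cells derive from a single edited clone unless stated otherwise. Of the 4 conditions, 20% O2 + Doxy and 20% O2 wo Doxy were grown for 6 days at 20% O2, and 3% O2 + Doxy and 3% O2 wo Doxy for 4 days at 20% O2 and a further 3 days at 3% O2. Each condition had 3 libraries, described by the submitters as biological replicates. Oxygen and the length of culture, 6 days against 7 days in all, cannot be told apart in these data, and neither can the loss of FDX2 and the withdrawal of Doxy.

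Prolyl 4-hydroxylases modify prolines of new procollagen chains in the endoplasmic reticulum, which lets the triple helix stay folded at body temperature. Lysyl hydroxylases modify lysines of the same chains, where sugars are then attached and from which stable cross-links are built. Both enzyme groups need molecular oxygen, 2-oxoglutarate, iron and ascorbate. Lysyl oxidases are secreted copper enzymes that oxidise lysines and hydroxylysines of collagen and elastin outside the cell and so start the cross-linking. Several of these genes are known targets of the hypoxia-inducible factors (HIF), and stiff, cross-linked collagen is a known feature of many solid tumours.

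The sequences upstream of these genes are shown because HIF binds DNA at sites with the core letters ACGTG or GCGTG, and the genes differed in their response to 3% O2. The 250 bases before the start were taken from RefSeq (GRCh38.p14) for the 8 members matched in its promoter table, and P4HA3 and LOXL2 were not matched. The 5 windows below run 5′ to 3′ on the strand of the gene, and capitals mark the core letters on either strand. They were taken at chr10:73096867-73097116 on the minus strand for P4HA1, at chr5:132227092-132227341 on the minus strand for P4HA2, at chr1:11934467-11934716 on the plus strand for PLOD1, at chr3:146161185-146161434 on the minus strand for PLOD2 and at chr5:122078260-122078509 on the minus strand for the most upstream of 3 starts of LOX.
P4HA1: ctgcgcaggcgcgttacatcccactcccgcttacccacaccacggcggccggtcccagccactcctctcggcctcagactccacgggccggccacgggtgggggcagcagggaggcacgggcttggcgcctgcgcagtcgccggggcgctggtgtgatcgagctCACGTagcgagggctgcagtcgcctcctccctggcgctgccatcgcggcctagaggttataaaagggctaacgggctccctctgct
P4HA2: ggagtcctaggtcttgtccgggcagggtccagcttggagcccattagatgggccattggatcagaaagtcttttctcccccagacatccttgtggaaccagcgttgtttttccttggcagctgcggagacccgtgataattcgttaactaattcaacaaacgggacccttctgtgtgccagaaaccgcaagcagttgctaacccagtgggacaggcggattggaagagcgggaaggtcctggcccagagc
PLOD1: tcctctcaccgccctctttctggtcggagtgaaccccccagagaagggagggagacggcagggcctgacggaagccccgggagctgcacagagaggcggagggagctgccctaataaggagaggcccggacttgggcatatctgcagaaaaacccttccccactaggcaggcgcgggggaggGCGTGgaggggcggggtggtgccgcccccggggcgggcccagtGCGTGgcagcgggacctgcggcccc
PLOD2: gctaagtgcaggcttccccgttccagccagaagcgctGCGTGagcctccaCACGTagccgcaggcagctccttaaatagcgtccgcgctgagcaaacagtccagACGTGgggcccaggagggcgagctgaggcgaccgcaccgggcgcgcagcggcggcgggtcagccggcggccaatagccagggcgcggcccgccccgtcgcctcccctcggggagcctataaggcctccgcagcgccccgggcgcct
LOX: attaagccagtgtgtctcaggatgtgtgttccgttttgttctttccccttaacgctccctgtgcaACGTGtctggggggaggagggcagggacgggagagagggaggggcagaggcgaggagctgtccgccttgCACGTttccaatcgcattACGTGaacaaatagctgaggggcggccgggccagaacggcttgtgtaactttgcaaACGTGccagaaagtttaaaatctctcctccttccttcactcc

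The LOX window held 4 matches, all of them ACGTG, at 185, 116, 98 and 42 bases before the start. The PLOD2 window held 3, with GCGTG at 213 and ACGTG at 200 and 146 bases. The PLOD1 window held GCGTG at 68 and 25 bases, the P4HA1 window held 1 ACGTG at 86 bases, and no match was found in these windows of P4HA2, PLOD3, LOXL1 and LOXL4. No matches overlapped in the windows shown. Of 35116 RefSeq windows of the same length, 43.2% held at least 1 match on either strand (18.5% ACGTG and 32.2% GCGTG), 7.8% held 3 or more and 3.2% held 4 or more. The 2 other LOX windows, not shown, overlap each other and held 2 matches each. A match was thus held by 6 of 10 member windows, from 4 of 8 matched members. The background counts windows, and a difference from it was not tested. A match describes letters and is not a binding site.

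The libraries held between 24958386 and 34313637 counts, and 16891 genes were tested. FDX2 itself had 2 to 13 counts in every library, too few to check its loss. With Doxy it had 5, 2 and 6 counts at 20% O2 and 2, 4 and 12 at 3% O2. Without Doxy it had 9, 13 and 4, and 7, 7 and 5. No excess was thus counted with Doxy, where the transgene is expressed, and the reason was not tested. Of the epithelial markers reported here, KRT7, KRT18, KRT8 and PAX8 were detected and EPCAM, CDH1, KRT19, WT1 and MUC16 were at 10 counts or fewer, as were all 4 leukocyte markers. Of 4 endothelial markers, CDH5 and KDR were above 10 counts. Of 6 fibroblast markers 4 exceeded 10 counts: COL1A1 was abundant, PDGFRA had 95 to 311 counts and COL1A2 and PDGFRB had up to 23 and 11, while DCN and LUM had 2 counts at most. The marker sums moved with the conditions. The fibroblast sum, almost wholly COL1A1, ran from 1267 to 1918 CPM in 20% O2 + Doxy, from 1079 to 1149 in 20% O2 wo Doxy, from 1346 to 1989 in 3% O2 + Doxy and from 1852 to 2455 in 3% O2 wo Doxy. Without COL1A1 it ran from 3.88 to 4.44, from 8.86 to 10.4, from 4.33 to 4.77 and from 7.73 to 9.17 CPM in the same order. The 4 detected epithelial markers summed to 1049 to 1419, 846 to 902, 1036 to 1256 and 1084 to 1213 CPM, and the 2 endothelial ones to 42.8 to 54.2 CPM in 3% O2 wo Doxy and 23.9 to 39.1 CPM elsewhere. The part of cell type in the results was not tested.

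One property of the libraries moved with several members. In each library the level of genes followed the GC content of their transcripts, with a slope relative to the average library of -0.15 to 0.191 on the log2 scale per 10 GC points. Replicate 1 of 20% O2 + Doxy (0.172), replicate 3 of 3% O2 + Doxy (0.191) and replicate 2 of 3% O2 wo Doxy (0.182) stood apart in this slope. PLOD1, PLOD3, LOXL1 and LOXL2 have GC-rich transcripts (58.6%, 61.7%, 67.6% and 58.2%, against a median of 47.7% of the tested genes), and in all 12 of 12 cases over these 3 conditions the steepest library had the highest level of its condition. PLOD2 and P4HA1, at 34.4% and 40.8% GC, were lowest in that library in 5 of 6 cases. LOX, at 39.6% GC, did not follow this. In that library it was in the middle in 20% O2 + Doxy and 3% O2 + Doxy and highest in 3% O2 wo Doxy. Slopes also differed between conditions, from -0.15 to -0.0863 in 20% O2 wo Doxy and from 0.0248 to 0.182 in 3% O2 wo Doxy. Values from a fit in which each library's GC trend was taken out are therefore given beside the results it changed. That correction was chosen after seeing the data. It also takes out any GC-linked difference between conditions, and whether the trend is technical was not tested.

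**Figure D1:**
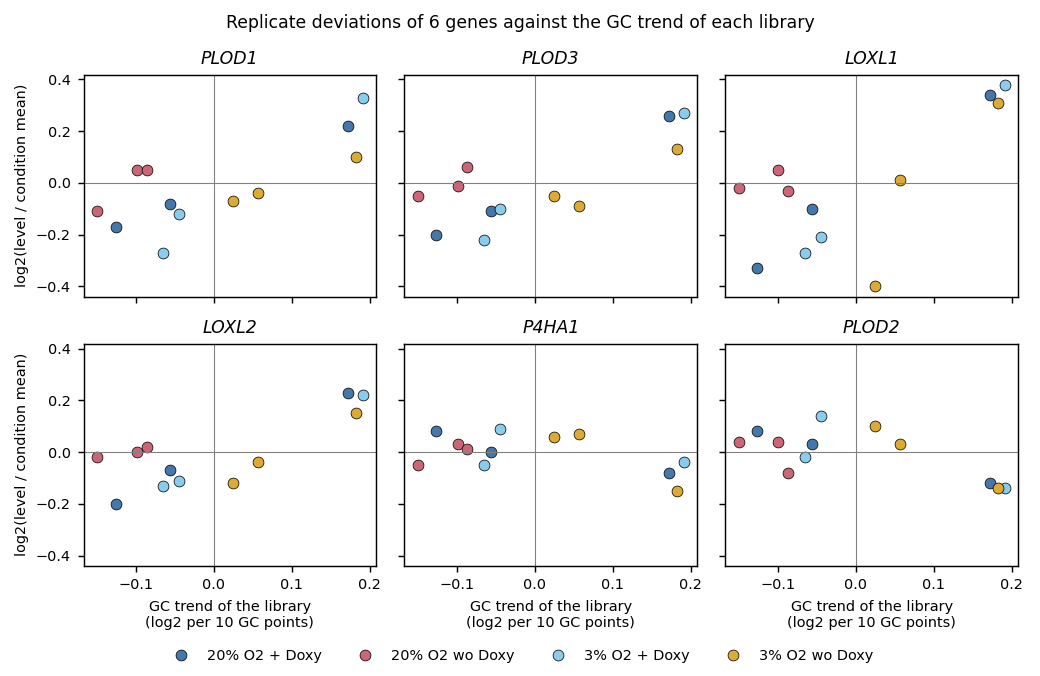
Level of 6 members in each library relative to the mean of its condition (log2, vertical axis) against the GC trend of that library (log2 per 10 GC points, horizontal axis), coloured by condition. The 3 libraries at slopes of 0.172 to 0.191 hold the highest PLOD1, PLOD3, LOXL1 and LOXL2 of their conditions and the lowest PLOD2.

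Levels below are CPM (the counts of a gene relative to the TMM-scaled library total), as mean ± SD over 3 libraries. Differences were tested by the quasi-likelihood method of edgeR, with p-values adjusted by Benjamini-Hochberg over all tested genes. A gene was called at an adjusted p under 0.05. FDX2 loss at 20% O2 gave calls for 3 of 9 tested members, against a background of 35.3% of all tested genes: 1 was higher (background 17.6%) and 2 were lower (17.7%). FDX2 loss at 3% O2 gave 2 calls, against 7.31%, with 1 higher (4.20%) and 1 lower (3.11%). With Doxy, 3 members were called at 3% against 20% O2, against 2.02%, all of them higher (1.63%, with 0.385% of genes lower). Without Doxy, 6 members were called, against 25.8%, again all higher (13.9%, with 11.9% of genes lower). The difference between the responses to FDX2 loss at 3% and 20% O2 was called for 3 members, against 7.29%, with 1 higher (3.21%) and 2 lower (4.08%). The 3 libraries of one condition lay wholly above or below those of the other for 5, 3, 5 and 7 of 9 members in the first 4 comparisons, against 52.3%, 24.6%, 15.4% and 49.4% of all tested genes. The median log2 fold change of the 9 members was -0.11, 0.03, 0.18, 0.56 and 0.30 in these 5 comparisons in turn, beside 0.01, 0.04, 0.00, 0.07 and 0.05 over all tested genes. The comparisons share conditions, so they are not independent of each other. In bulk RNA, fewer cells expressing a gene and less RNA per cell cannot be told apart.

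Without the 3 libraries that stood apart, 4, 4, 4, 8 and 4 members were called in the same order, against 42.5%, 15.2%, 3.03%, 33.5% and 15.0% of all genes. With the GC correction 3, 6, 5, 6 and 4 were called, against 46.4%, 19.3%, 7.49%, 33.1% and 18.3%. The fits without the 3 libraries keep replicate 1 of 3% O2 wo Doxy. Its counts differed more from replicates 2 and 3 (mean chi-square per gene 34.5 and 31.6) than these did from each other (8.80).

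**Figure D2:**
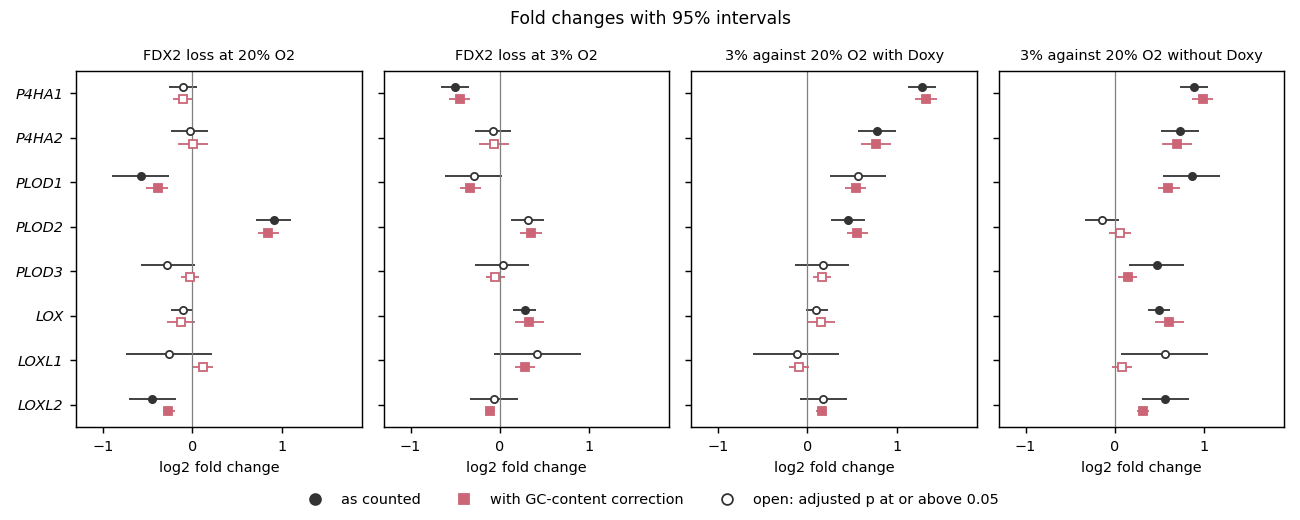
log2 fold changes (horizontal axis) of 8 members in 4 comparisons, with 95% intervals, as counted (circles) and with the GC-content correction (squares); filled symbols have an adjusted p under 0.05. P4HA1 and P4HA2 lie to the right of 0 in both oxygen comparisons, and LOXL1 at 3% against 20% O2 without Doxy moves from 0.56 to 0.08 with the correction.

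P4HA1 (ENSG00000122884, chromosome 10, 73007217 to 73096974, minus strand, GRCh38) encodes the alpha subunit of the prolyl 4-hydroxylase found in most cell types. With Doxy it stood at 55.6, 58.8 and 62.0 CPM in the 3 libraries at 20% O2 and at 138, 152 and 139 CPM at 3% O2. Without Doxy it stood at 56.0, 55.3 and 52.8 CPM at 20% O2 and at 106, 91.3 and 106 CPM at 3% O2. Every library at 3% O2 lay above every library at 20% O2, and at 3% O2 every library without Doxy lay below every library with it, while at 20% O2 these groups overlapped. P4HA1 rose 2.43-fold at 3% O2 with Doxy (log2 fold change 1.28, SE 0.0715, adjusted p = 3.38e-06). Without Doxy it rose 1.85-fold (0.89, SE 0.0713, adjusted p = 1.91e-05). This was the largest log2 fold change among the called members in either oxygen comparison. At 3% O2, FDX2 loss lowered P4HA1 1.41-fold (log2 fold change -0.50, SE 0.0703, adjusted p = 0.00209), to 101 ± 8.48 from 143 ± 7.61 CPM. At 20% O2 the change was -0.10 (95% interval -0.26 to 0.05, adjusted p = 0.294), and of the alternatives run it passed only without the 3 libraries that stood apart (-0.15, adjusted p = 0.037). The response to FDX2 loss was lower at 3% than at 20% O2 by -0.40 (SE 0.0999, adjusted p = 0.0381). That difference passed the threshold in 4 of 12 fits that left out a library and not without replicate 1 or 2 of 20% O2 + Doxy, any replicate of 20% O2 wo Doxy, replicate 1 or 2 of 3% O2 + Doxy or replicate 2 of 3% O2 wo Doxy (adjusted p up to 0.112), whereas the called differences between conditions did so in 6 of 6. It was also lost with no filter on low counts (adjusted p = 0.0827) and with the replicate block in all libraries (0.092).

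P4HA2 (ENSG00000072682, chromosome 5, 132191838 to 132295315, minus strand) encodes a second alpha subunit, known from cartilage, bone and tumour stroma. Its libraries ran from 9.96 to 12.2 CPM with Doxy and from 10.2 to 11.8 CPM without Doxy at 20% O2. At 3% O2 they ran from 17.5 to 20.9 CPM with Doxy and from 17.4 to 18.4 CPM without. The 3% libraries lay above the 20% libraries throughout, and cells with and without Doxy overlapped at either oxygen level. P4HA2 rose 1.72-fold with Doxy (log2 fold change 0.78, SE 0.0946, adjusted p = 0.00098) and 1.66-fold without (0.73, SE 0.0949, adjusted p = 0.00038), each in 6 of 6 fits without 1 library. FDX2 loss moved it by -0.03 at 20% O2 (95% interval -0.24 to 0.18) and by -0.08 at 3% O2 (-0.28 to 0.13), neither of which passed the test. About 6.45% of its exon length overlaps an antisense gene, P4HA2-AS1, and the strand setting of the counting is not given in the sources used here.

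P4HA3 (ENSG00000149380, chromosome 11, 74235801 to 74311657, minus strand), the least studied alpha subunit, was near the detection limit with 10 to 103 counts per library. In 3% O2 wo Doxy it stood at 4.15, 0.397 and 0.655 CPM, and in the other 9 libraries between 0.348 and 0.834 CPM. A single library, replicate 1 of 3% O2 wo Doxy with 103 counts, lay above all others. The fitted change after FDX2 loss at 3% O2 was 1.65 (SE 0.73, adjusted p = 0.204) and fell to -0.03 without that library. The oxygen difference without Doxy was 1.59 (adjusted p = 0.128) and -0.08 without it. Without the 3 libraries that stood apart, which keeps that replicate, the latter difference passed the test (2.06, adjusted p = 0.0412).

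**Figure D3:**
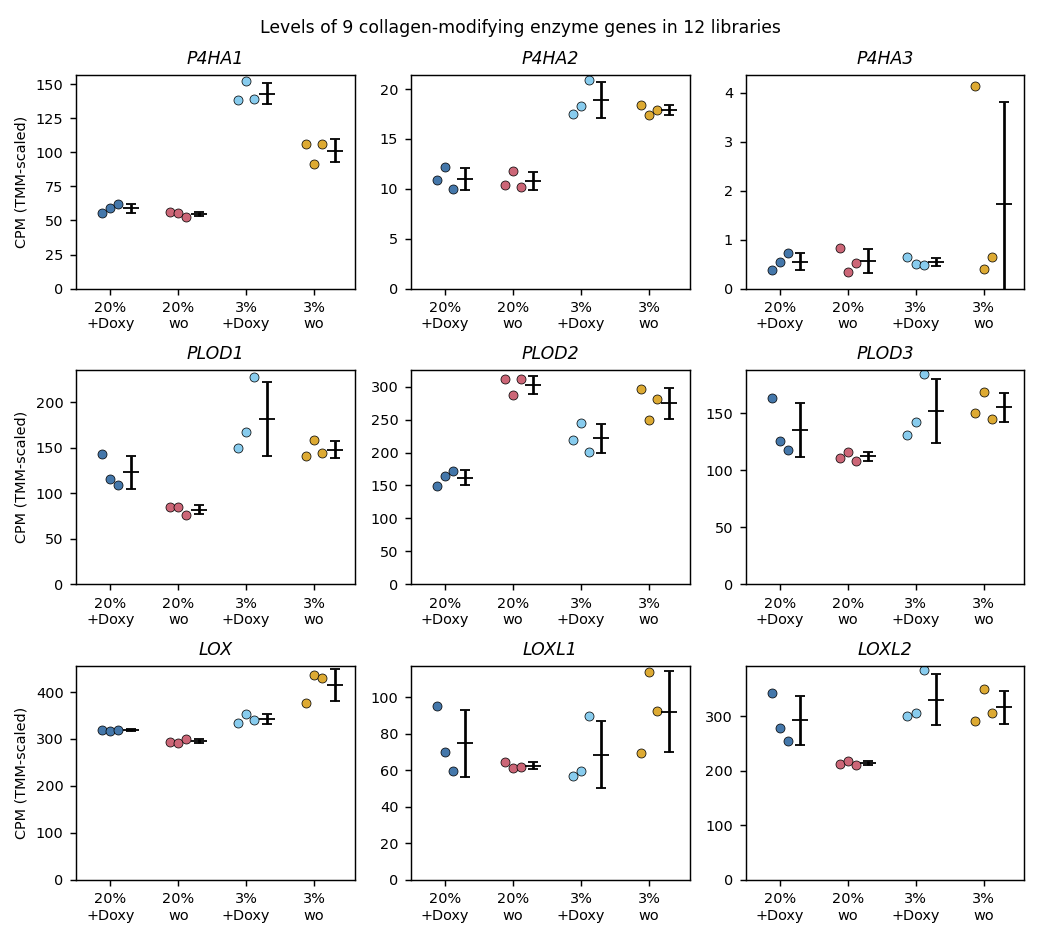
CPM (vertical axis, from 0) of the 9 tested members in the 12 libraries by condition, each point 1 library in order of replicate number, with the mean and SD of 3 libraries as a bar to the right (the SD of P4HA3 in 3% O2 wo Doxy reaches below 0 and is cut there). P4HA1 is highest in 3% O2 + Doxy at 143 ± 7.61 CPM and PLOD2 in 20% O2 wo Doxy at 303 ± 13.9 CPM.

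PLOD1 (ENSG00000083444, chromosome 1, 11934205 to 11975538, plus strand) encodes the lysyl hydroxylase that modifies lysines of the collagen helix. With Doxy it stood at 143, 116 and 109 CPM at 20% O2 and at 150, 167 and 228 CPM at 3% O2. Without Doxy it stood at 84.9, 84.9 and 76.0 CPM at 20% O2 and at 141, 159 and 144 CPM at 3% O2. The cells wo Doxy at 20% O2 lay below all other libraries. FDX2 loss at 20% O2 lowered PLOD1 (log2 fold change -0.58, SE 0.145, adjusted p = 0.00953). Without Doxy it rose 1.81-fold at 3% against 20% O2 (log2 fold change 0.86, SE 0.145, adjusted p = 0.00196), and both calls use the low cells wo Doxy at 20% O2. With the GC correction they were -0.39 (adjusted p = 0.000128) and 0.60 (adjusted p = 1.28e-05). With Doxy the oxygen difference was 0.57 (SE 0.144, adjusted p = 0.0789), with no overlap between the 3% and 20% libraries, a separation seen in 15.4% of all tested genes. It passed with DESeq2 (0.56, adjusted p = 0.0061), with no filter on low counts (adjusted p = 0.0441) and with at least 10 counts in every library (0.0454). It also passed with the GC correction (0.54, adjusted p = 0.000109), without the 3 libraries that stood apart (0.49, adjusted p = 0.00598), and without replicate 1 of 20% O2 + Doxy (0.68) or of 3% O2 + Doxy (0.69). FDX2 loss at 3% O2 gave -0.29 (95% interval -0.61 to 0.02, adjusted p = 0.252), and -0.33 with the GC correction (adjusted p = 0.00188).

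PLOD2 (ENSG00000152952, chromosome 3, 146069440 to 146163653, minus strand) encodes the hydroxylase of the collagen telopeptides, whose products give the most stable cross-links. At 20% O2 it stood at 149, 165 and 172 CPM with Doxy and at 311, 287 and 311 CPM without. At 3% O2 it stood at 219, 245 and 201 CPM with Doxy and at 296, 249 and 281 CPM without. The libraries without Doxy lay above those with it at either oxygen level, and the 3% and 20% libraries without Doxy overlapped. FDX2 loss at 20% O2 raised PLOD2 1.87-fold (log2 fold change 0.91, SE 0.0872, adjusted p = 1.98e-05), the largest change of a called member in that comparison and the reverse of PLOD1 in direction. At 3% O2 the difference was 0.31 (SE 0.0866, adjusted p = 0.0544), and it passed the threshold with DESeq2 (0.29, adjusted p = 0.0273), with the GC correction (0.35, adjusted p = 0.00132), without the 3 libraries that stood apart (0.29, adjusted p = 0.019) and without replicate 2 of 3% O2 wo Doxy (0.38). The response was smaller at 3% than at 20% O2 by -0.59 (SE 0.122, adjusted p = 0.0162). This difference passed in 9 of 12 fits without 1 library, and not without replicate 1 or 3 of 20% O2 wo Doxy or replicate 2 of 3% O2 + Doxy (adjusted p up to 0.0687), nor with the replicate block in all libraries (0.0517).

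With Doxy, PLOD2 rose 1.37-fold at 3% against 20% O2 (log2 fold change 0.46, SE 0.0868, adjusted p = 0.0192). That call was lost without replicate 1 or 2 of 20% O2 + Doxy or replicate 1 or 2 of 3% O2 + Doxy (adjusted p up to 0.126), with the replicate block in all libraries (0.0722) and in the fit to the compared conditions alone (0.149). With the GC correction the difference was 0.56 (adjusted p = 8.02e-05). Without Doxy the oxygen difference was -0.14 (95% interval -0.33 to 0.05, adjusted p = 0.26) and 0.06 with the GC correction.

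PLOD3 (ENSG00000106397, chromosome 7, 101205977 to 101218420, minus strand) encodes a hydroxylase that also adds sugars to hydroxylysine. Its libraries ran from 118 to 163 CPM with Doxy and from 108 to 116 CPM without Doxy at 20% O2, and from 131 to 184 CPM with Doxy and from 145 to 169 CPM without Doxy at 3% O2. The groups without Doxy did not overlap. PLOD3 rose 1.38-fold at 3% against 20% O2 without Doxy (log2 fold change 0.47, SE 0.138, adjusted p = 0.0294). The call was lost without any 1 of the 3 replicates of 20% O2 wo Doxy or replicate 2 of 3% O2 wo Doxy (adjusted p up to 0.105). In these fits the log2 fold change was 0.40 to 0.49. The replicate block ended it in the fit to all libraries (0.47, adjusted p = 0.0638) and not in the fit to these conditions alone (adjusted p = 0.00472). With the GC correction the difference was 0.15 (adjusted p = 0.0314), and 0.14 with the replicate block added (adjusted p = 0.116). The other comparisons lay between -0.28 and 0.30 and did not pass the test.

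Within the lysyl hydroxylases, levels were compared per kilobase of exon. PLOD2 made up 31.4% ± 4.81 of the family sum in 20% O2 + Doxy, 53.0% ± 2.17 in 20% O2 wo Doxy, 32.7% ± 5.85 in 3% O2 + Doxy and 39.5% ± 3.67 in 3% O2 wo Doxy. PLOD1 made up 33.7% ± 1.87, 20.6% ± 1.18, 37.6% ± 3.92 and 30.6% ± 1.68 in the same order. At 20% O2 without Doxy the libraries of PLOD2 lay above those of PLOD1 and PLOD3 on this scale, while with Doxy the 3 genes overlapped at 20% O2. Among the prolyl 4-hydroxylase subunits P4HA1 made up 92.6% to 95.1% of the family sum in the 4 conditions. Per kilobase of the longest transcript it made up 84.8% to 89.6%, and P4HA2 made up 10.1% to 14.2%. The shares are descriptions, since the length of the transcripts made in these cells was not measured.

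**Figure D4:**
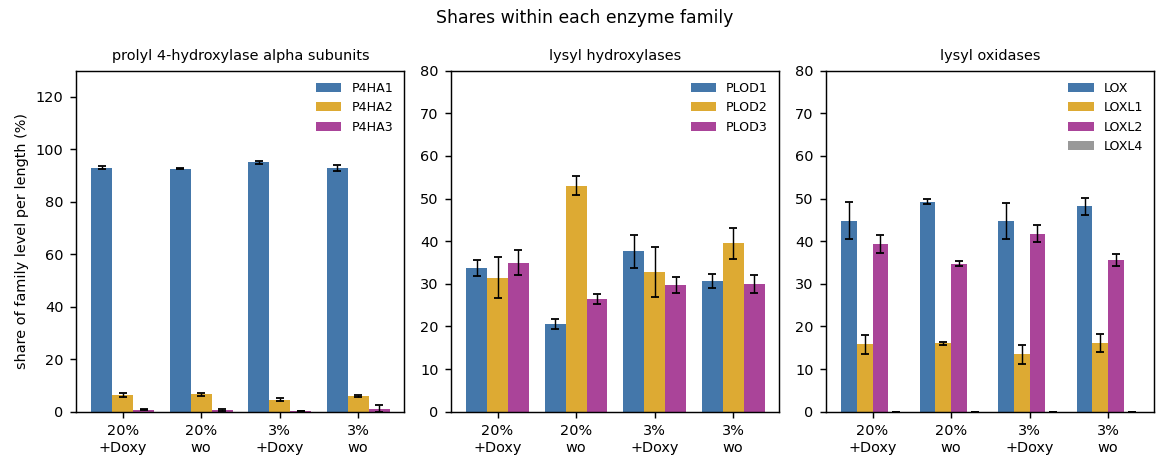
Share of each member in the CPM per kilobase of exon of its family (vertical axis, percent, from 0) in the 4 conditions, as mean (bars) and SD (error bars) of 3 libraries. PLOD2 reaches 53.0% ± 2.17 of the lysyl hydroxylases in 20% O2 wo Doxy, and P4HA1 stays between 92.6% and 95.1% of the prolyl 4-hydroxylase subunits.

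LOX (ENSG00000113083, chromosome 5, 122063195 to 122078360, minus strand) encodes the founding lysyl oxidase. At 20% O2 it stood at 319, 317 and 320 CPM with Doxy and at 293, 291 and 300 CPM without. At 3% O2 it stood at 334, 354 and 340 CPM with Doxy and at 376, 437 and 431 CPM without. No condition overlapped another, and the order was 20% O2 wo Doxy, 20% O2 + Doxy, 3% O2 + Doxy and 3% O2 wo Doxy from low to high. The 2 conditions at 20% O2 did not differ past the threshold, nor did 20% O2 + Doxy and 3% O2 + Doxy. LOX rose 1.41-fold at 3% against 20% O2 without Doxy (log2 fold change 0.49, SE 0.0564, adjusted p = 0.000178), in 6 of 6 fits without 1 library. With Doxy the difference was 0.10 (95% interval -0.02 to 0.23, adjusted p = 0.499). FDX2 loss at 3% O2 raised LOX 1.21-fold (0.28, SE 0.0563, adjusted p = 0.0146), a call lost without replicate 1 of 3% O2 + Doxy or replicate 2 or 3 of 3% O2 wo Doxy (adjusted p up to 0.0651), with no filter on low counts (0.096) and in the fit to the compared conditions alone (0.14). At 20% O2 it gave -0.11 (95% interval -0.24 to 0.01, adjusted p = 0.145). The response was higher at 3% than at 20% O2 by 0.39 (SE 0.0796, adjusted p = 0.0158), in 10 of 12 fits without 1 library and not without replicate 1 or 2 of 20% O2 wo Doxy (adjusted p up to 0.0591) or with no filter (0.0526). With the GC correction the 3 called values were 0.61, 0.33 and 0.46, and all 3 passed the test.

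LOXL2 (ENSG00000134013, chromosome 8, 23297189 to 23425328, minus strand) encodes a lysyl oxidase known to cross-link basement membrane collagen. At 20% O2 it stood at 343, 278 and 254 CPM with Doxy and at 213, 217 and 211 CPM without. At 3% O2 it stood at 301, 306 and 384 CPM with Doxy and at 291, 350 and 306 CPM without. The cells wo Doxy at 20% O2 lay below all other libraries, as for PLOD1. FDX2 loss at 20% O2 lowered LOXL2 1.36-fold (log2 fold change -0.45, SE 0.121, adjusted p = 0.0141), and -0.27 remained with the GC correction (adjusted p = 1.34e-05). It rose 1.48-fold at 3% against 20% O2 without Doxy (log2 fold change 0.56, SE 0.121, adjusted p = 0.00692), or 0.31 with the GC correction (adjusted p = 9.61e-06). The oxygen difference with Doxy (0.18) and the effect of FDX2 loss at 3% O2 (-0.07) did not pass the test, and passed it at 0.16 (adjusted p = 0.0048) and -0.11 (adjusted p = 0.0163) with the GC correction. The difference of response was 0.38 (adjusted p = 0.205), and it passed with the GC correction (0.15, adjusted p = 0.0202) and without the 3 libraries that stood apart (0.28, adjusted p = 0.0178).

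LOXL1 (ENSG00000129038, chromosome 15, 73925989 to 73952137, plus strand) encodes a lysyl oxidase known for its part in elastic fibres and has the most GC-rich transcripts of the members. It stood at 95.1, 70.0 and 59.5 CPM in 20% O2 + Doxy and at 64.7, 61.5 and 61.8 CPM in 20% O2 wo Doxy. At 3% O2 it stood at 56.8, 59.6 and 89.6 CPM with Doxy and at 69.6, 114 and 92.8 CPM without. The highest value of each of the 3 conditions with a wide spread came from the library with the steepest GC trend. No comparison passed the test as fitted to all libraries, the nearest being 3% against 20% O2 without Doxy (log2 fold change 0.56, SE 0.219, adjusted p = 0.0849), which was 0.08 with the GC correction. That comparison passed with DESeq2 (0.54, adjusted p = 0.0462), in the fit to these conditions alone (0.54, adjusted p = 0.0381), without the 3 libraries that stood apart (0.37, adjusted p = 0.025) and without replicate 1 of 3% O2 wo Doxy (0.72, adjusted p = 0.0309). FDX2 loss at 3% O2 gave 0.42 (adjusted p = 0.274), and passed at 0.28 with the GC correction (adjusted p = 0.00275) and at 0.46 without the 3 libraries (adjusted p = 0.029). About 9.21% of its exon length overlaps the antisense gene LOXL1-AS1.

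LOXL4 (ENSG00000138131, chromosome 10, 98247690 to 98268250, minus strand), another secreted lysyl oxidase, was not detectable at this depth. It had 3 counts in all, with 1 each in replicate 1 of 3% O2 + Doxy and replicates 1 and 2 of 3% O2 wo Doxy. The other 9 libraries were at 0, which allows up to 3 counts, or 0.0882 to 0.115 CPM. Counting error alone is covered by these limits. Per kilobase of exon, LOX and LOXL2 were the main lysyl oxidases, at 44.8% to 49.3% and 34.7% to 41.7% of the family sum. Their order depended on the length used. Per kilobase of the longest transcript, the mean share of LOXL2 was the larger in every condition, at 42.9% to 50.2% against 36.6% to 41.1% for LOX.

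For the 3 members with the widest range between conditions, the genes with the most similar pattern were looked up among 10626 genes of at least 5 CPM. They are given as a description by Pearson's r of log2 CPM over the 12 libraries, which share conditions, depth and GC trend. NMNAT2, GBE1 and AK4 were most like P4HA1 (r = 0.994, 0.991 and 0.989). GAPDH, PLAUR and GPI were most like PLOD1 (0.992, 0.990 and 0.989). SERPINB7, PARVA and MME were most like PLOD2 (0.966, 0.964 and 0.964). Of 10 well-known HIF targets, 9 were tested. All 9 were called higher at 3% O2 with Doxy (median log2 fold change 1.10), against 1.63% of all tested genes. Without Doxy 8 were called higher (1.32), against 13.9%. The exception, VEGFA, was at -0.24 (adjusted p = 0.102). It passed as lower with DESeq2 (-0.25, adjusted p = 0.0459) and with the GC correction (-0.39, adjusted p = 0.000194). VEGFA also passed without the 3 libraries that stood apart (-0.24, adjusted p = 0.0103). With a replicate block in the fit to these conditions alone it was at -0.25 (adjusted p = 0.019). FDX2 loss at 20% O2 had raised VEGFA (1.37, adjusted p = 2.96e-06), to 89.2 from 34.6 CPM.

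The members act beside other proteins of procollagen maturation, and a list of 34 such genes was examined, of which 30 were tested. FDX2 loss at 20% O2 gave 16 calls among the 30 (7 higher, 9 lower), against 35.3% of all genes, with a median log2 fold change of -0.08. ADAMTS3 and ADAMTS2, which remove the amino-terminal propeptide of procollagen, fell by 0.70 (SE 0.0696, adjusted p = 2.6e-05) and by 0.63 (SE 0.128, adjusted p = 0.0029) on the log2 scale. P3H3, a relative of the prolyl 3-hydroxylases that works with lysyl hydroxylase 1, fell by 0.67 (SE 0.197, adjusted p = 0.022), or by 0.40 with the GC correction, and its call was lost without replicate 1 of 20% O2 + Doxy or replicate 1 or 3 of 20% O2 wo Doxy (adjusted p up to 0.0711). ATP7A, the copper pump that loads lysyl oxidases, rose by 0.61 (SE 0.154, adjusted p = 0.0107), a call lost without replicate 1 of 20% O2 wo Doxy (adjusted p = 0.0538).

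Without Doxy, 16 of 30 genes of the list were also called at 3% against 20% O2 (10 higher, 6 lower), against 25.8% of all genes. This comparison shares the cells wo Doxy at 20% O2 with the one just described. LOXL3, a further lysyl oxidase, rose by 0.81 (SE 0.216, adjusted p = 0.0197) and was at 0.62 with the GC correction (adjusted p = 0.0806). The LOXL3 call was also lost with a replicate block in the fit to these conditions alone (adjusted p = 0.0693) and without replicate 1 or 3 of 20% O2 wo Doxy or replicate 1 of 3% O2 wo Doxy (up to 0.0932). P3H3, the collagen proteinase enhancer PCOLCE and the prolyl 3-hydroxylase P3H1 rose by 0.73, 0.68 and 0.64 (adjusted p = 0.0205, 0.013 and 0.00356), or by 0.39, 0.35 and 0.61 with the GC correction. The P3H3 call was lost without any 1 replicate of 20% O2 wo Doxy or replicate 2 of 3% O2 wo Doxy (adjusted p up to 0.0803), and that of PCOLCE without replicate 2 of 3% O2 wo Doxy (0.0526). P4HB, the shared beta subunit of the prolyl 4-hydroxylases, rose by 0.49 (SE 0.11, adjusted p = 0.00819), and is named here after its values were seen.

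With Doxy, none of the 30 genes was called at 3% O2 by edgeR, while 6 had an unadjusted p under 0.05 and DESeq2 called 2. With the GC correction 5 were called. After FDX2 loss at 3% O2, 2 of 30 were called, against 7.31% of all genes. SEC24D, a coat protein of procollagen export, fell by 0.23 (adjusted p = 0.0379), and KDELR2, the receptor that returns proteins to the endoplasmic reticulum, fell by 0.21 (adjusted p = 0.0474). The SEC24D call was lost in each of the 6 fits without 1 library (adjusted p up to 0.114) and that of KDELR2 in 5 of 6, all but the one without replicate 3 of 3% O2 + Doxy (up to 0.167). FDX2 loss acted differently at the 2 oxygen levels on SLC31A1, a copper importer, by -0.49 (SE 0.0893, adjusted p = 0.00845) and on ADAMTS3 by 0.46 (SE 0.0977, adjusted p = 0.0183). The ADAMTS3 difference was lost without replicate 2 of 20% O2 + Doxy, any 1 replicate of 20% O2 wo Doxy or replicate 2 of 3% O2 + Doxy (adjusted p up to 0.0868) and with the replicate block (0.053), while that of SLC31A1 passed in 12 of 12 fits without 1 library.

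**Figure D5:**
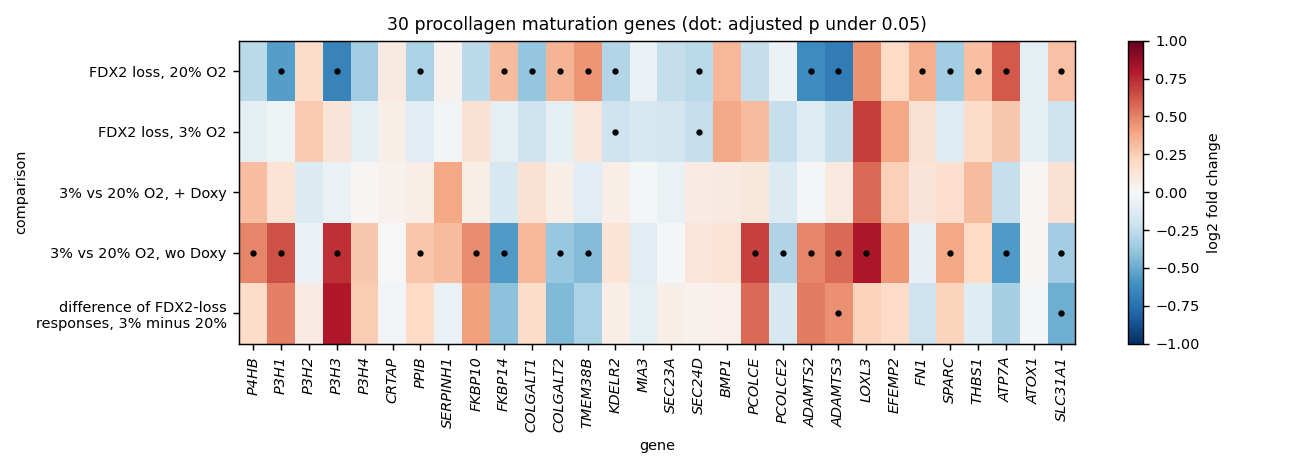
log2 fold changes (colour, from -1 to 1) of the 30 tested genes of the procollagen maturation list (columns) in 5 comparisons (rows), with a dot where the adjusted p is under 0.05. There are 16 dots after FDX2 loss at 20% O2, 16 at 3% against 20% O2 without Doxy and 0 with Doxy, and the last row, which holds the test of the difference, has 2.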

How the data were processed

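Poly(A) RNA of 12 libraries was sequenced by the authors as paired reads, and raw counts per gene were deposited by the authors as whole numbers. The submitters' processing notes name STAR, featureCounts, DESeq2 and GRCh38, and versions, annotation release and strand setting are not given in the sources used here. All 58735 identifiers were found in GENCODE release 29 (GRCh38), which gave positions, exon lengths and transcript GC content, and 58207 matched a symbol. The table held 0 columns of other samples. Libraries of a condition differed by more than sampling noise, with no pair that looked like a repeat of another.

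Of 32966 genes with a count, 16891 passed edgeR's filterByExpr (minimum count 10, minimum total 15). Counts were scaled by TMM and fitted in edgeR 4.0.16 (R 4.3.3) with 4 condition means and quasi-likelihood tests (8 residual degrees of freedom, common biological coefficient of variation 16.3%), Benjamini-Hochberg adjusted over all tested genes. A pseudocount of 0.5 was used for log2 CPM in the search for similar genes. The script was tested on simulated counts with known changes. Those counts held no GC trend and no library that stood apart, so they cannot speak to either. In the fit to all libraries, p-values rest on the spread between the 3 libraries within each condition, pooled over the 4 conditions.

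Alternatives were DESeq2 1.42.0 (Wald test), its size factors, no filter or a stricter one, a replicate block, fits to the compared conditions alone, and each library left out. A GC correction (lowess, span 0.3, genes above log2 CPM 2) and the omission of the 3 libraries with the steepest GC trend were added after the data were seen. Between the libraries wo Doxy at 20% and 3% O2, the deviations of same-numbered libraries correlated at 0.190 to 0.497. Those of differently numbered libraries correlated at -0.473 to 0.231. The ranges overlap, so a pairing by replicate number is not established there. For the other 5 pairs of conditions, at least 1 of the 3 correlations was 0.1 or less. In the fit to the conditions wo Doxy alone, LOXL1 passed without the block (adjusted p = 0.0381) and not with it (0.0535). The block left the calls of the other members in that fit as they were. In the fit to all libraries it ended the call of PLOD3.

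The members and the lists were chosen with earlier results of these data known. All 10 members are named in each comparison. Of the procollagen maturation list, up to 4 called genes with the largest absolute log2 fold change are named per comparison, and P4HB in addition. Similar genes are the 3 with the highest Pearson r for each of the 3 members with the widest range among those of at least 5 CPM. An epithelial marker of the lists is not reported here.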

Additional observations from a re-analysis of the deposited data

Results flagged for a closer look

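A test of the difference between the responses to FDX2 loss at 3% and at 20% O2 flagged 3 members and 3 other genes (log2 scale, edgeR's quasi-likelihood test, Benjamini-Hochberg adjusted p). The response was lower at 3% O2 for P4HA1 (-0.40, adjusted p = 0.0381) and for PLOD2 (-0.59, adjusted p = 0.0162), and higher for LOX (0.39, adjusted p = 0.0158). Among procollagen maturation genes it was higher for ADAMTS3 (0.46, adjusted p = 0.0183) and lower for SLC31A1 (-0.49, adjusted p = 0.00845). Among the collagens it was higher for COL1A2 (2.37, adjusted p = 0.0101), which had at most 23 counts in a library. P4HA1 and PLOD2 did not pass with a replicate block in the fit to all libraries (adjusted p = 0.092 and 0.0517), while LOX did (0.0353).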

How the results depend on the processing

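Of the member values, 658 of 765 kept their direction and side of the threshold, 40 lost the threshold, 31 gained it and 36 changed sign, all of the last in values that had not passed the test. LOXL4 and P4HA3 are limited by depth, and the GC-rich members by the GC trend of the libraries, whose part in each difference was not tested beyond the correction. Family shares moved by more than 1 SD in 20 of 40 cases when the longest transcript replaced the exon length. The choices of a GC correction and of leaving out 3 libraries were made after seeing the data.

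Members called after FDX2 loss at 3% O2 (2) became 1 with no filter, 1 in the fit to the compared conditions alone, 0 with a replicate block in that fit, 6 with the GC correction with or without the block in all libraries, 4 without the libraries that stood apart, and 1 to 2 with single libraries left out. At 3% against 20% O2 with Doxy the 3 became 0 with the block in the fit to the compared conditions and 5 with the GC correction with or without the block. The 3 differences of response became 1 with no filter, 1 with the block, and 0 to 3 with single libraries left out. Their sizes with single libraries left out ran from -0.43 to -0.33 (P4HA1), -0.66 to -0.53 (PLOD2) and 0.35 to 0.46 (LOX). The block in the fit to the compared conditions called only 1 gene of all after FDX2 loss at 3% O2. It called 12 at 3% O2 with Doxy, and in both cases the numbers did not pair the libraries. At 3% against 20% O2 without Doxy the block changed the calls of LOXL3 and, in the fit to all libraries, PLOD3. In the fit to the compared conditions alone it also ended the pass of LOXL1. All are given above.

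For the procollagen maturation list, the 2 genes after FDX2 loss at 3% O2 became 0 with no filter, 1 with at least 10 counts in every library, 4 with DESeq2, 0 with the block in all libraries and in both fits to the compared conditions, 12 with the GC correction, 11 with correction and block, 12 without the libraries that stood apart, and 0 to 8 with single libraries left out. At 3% O2 with Doxy the 0 became 1 with DESeq2 size factors, 1 with the stricter filter, 2 with DESeq2, 5 with the GC correction, 3 with correction and block, 3 without the libraries that stood apart and 0 to 1 with single libraries left out. Without Doxy the 16 became 17 with DESeq2, 19 with the GC correction, 21 without the libraries that stood apart and 8 to 16 with single libraries left out. The 2 differences of response became 1 with no filter, 5 with DESeq2, 1 with the block, 11 with the GC correction, 7 with correction and block, 10 without the libraries that stood apart and 1 to 7 with single libraries left out.

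Over all genes, the 1235 after FDX2 loss at 3% O2 became 678 (no filter), 1859 (DESeq2), 676 (block), 218 (compared conditions), 1 (the same with block), 3253 (GC correction), 2763 (with block), 2610 (3 libraries out) and 581 to 1605 (single libraries out). The 341 at 3% O2 with Doxy became 605 (DESeq2), 218 (block), 128 (compared conditions), 12 (the same with block), 1265 (GC correction), 961 (with block), 520 (3 libraries out) and 190 to 388 (single libraries out). The 4360 without Doxy ran from 2321 to 4200 with single libraries out. The 1231 differences of response became 672 (no filter), 615 (block), 3093 (GC correction), 2622 (with block), 2568 (3 libraries out) and 520 to 2191 (single libraries out).

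Signs changed as follows, in values that had not passed the test. After FDX2 loss at 20% O2, P4HA2 was 0.01 and LOXL1 0.12 (from -0.26) with the GC correction with or without the block, and P4HA3 was -0.01 with no filter, -0.16 with the block, -0.11 with correction and block and -0.19 without the libraries that stood apart. At 3% O2, P4HA2 was 0.00447 without those libraries, and PLOD3 was -0.01 with no filter and -0.05 with the GC correction with or without the block. At 3% against 20% O2 without Doxy, PLOD2 was 0.06 in all 3 fits with the GC correction. For the difference of response, P4HA2 was 0.05 without the libraries that stood apart and PLOD3 -0.02 (from 0.30) with the GC correction with or without the block. With single libraries left out, P4HA2 ran from -0.12 to 0.05 (FDX2 loss, 20% O2), -0.14 to 0.00131 (3% O2) and -0.12 to 0.03 (difference). P4HA3 ran from -0.36 to 0.29, -0.03 to 2.12, -0.25 to 0.23 (oxygen, with Doxy), -0.08 to 2.06 (without) and -0.05 to 2.09. PLOD3 ran from -0.07 to 0.18 and LOXL2 from -0.15 to 0.06 after FDX2 loss at 3% O2, and LOXL1 from -0.36 to 0.07 for oxygen with Doxy. Causes were not tested.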

Other observations

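The collagens on which these enzymes act were expressed unevenly, and 6 of 11 substrate genes were tested. COL1A1, the alpha-1 chain of type I collagen, stood at 1510 ± 353, 1114 ± 39.7, 1579 ± 354 and 2119 ± 305 CPM (SD, n = 3) in 20% O2 + Doxy, 20% O2 wo Doxy, 3% O2 + Doxy and 3% O2 wo Doxy. COL1A2, its partner chain, had at most 23 counts in a library, and COL2A1, COL3A1, COL5A3, COL11A1 and elastin had 14 or fewer and were not tested. Of the 6, 4 were called after FDX2 loss at 20% O2 (1 higher, 3 lower), against 35.3% of all tested genes, and 1 higher after FDX2 loss at 3% O2, against 7.31%. At 3% against 20% O2, 0 were called with Doxy, against 2.02% (also 0 at an unadjusted p under 0.05 in edgeR and 0 by DESeq2), and 5 higher without Doxy, against 25.8%. Of these 5, COL1A1 and COL1A2 passed in 6 of 6 fits without 1 library, COL4A1 in 5, COL5A1 in 3 and COL4A2 in 1. COL5A1 fell from 1.02 to 0.50 without replicate 1 of 3% O2 wo Doxy. It did not pass with the GC correction (0.77, adjusted p = 0.0832). COL4A2 did not pass with the replicate block in all libraries (0.0606).

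COL4A1 and COL4A2, the chains of basement membrane collagen, had log2 fold changes of -0.62 (adjusted p = 0.00431) and -0.65 (adjusted p = 0.026) after FDX2 loss at 20% O2, and of -0.48 and -0.39 with the GC correction. The COL4A2 call was lost without replicate 1 of 20% O2 + Doxy (-0.46, adjusted p = 0.0841), without any 1 replicate of 20% O2 wo Doxy (adjusted p up to 0.0607) and with the replicate block in all libraries (0.0514). COL5A2 was higher after FDX2 loss at 20% O2 (0.45, adjusted p = 0.00183) and at 3% O2 (0.35, adjusted p = 0.0343). The call at 3% O2 was lost without replicate 1 or 2 of 3% O2 + Doxy or any 1 replicate of 3% O2 wo Doxy (adjusted p up to 0.12) and with the replicate block in all libraries (0.0806). COL1A1 was higher at 3% against 20% O2 without Doxy (0.93, adjusted p = 0.00387), or 0.61 with the GC correction. These genes were chosen after values were seen.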
